A study of Mus musculus with 6 samples.

Results

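Nonsense-mediated decay (NMD) factors were examined in mouse embryonic fibroblasts undergoing treatments that the series title links to apoptosis and necroptosis. The 9 genes were Upf1, Upf2, Upf3a, Upf3b, Smg1, Smg5, Smg6, Smg8 and Smg9, taken by symbol from 48897 rows of the deposited count table, and each symbol was found once. The cells were C57BL/6 fibroblasts at passages 5 to 7. One group received PBS (control), one received TNF-α with cycloheximide (TC), and one received TNF-α, cycloheximide and z-VAD-fmk (TCZ), each with 2 RNA-seq libraries. Cycloheximide stops ribosomes during elongation, TNF-α is a cytokine of inflammation, and z-VAD-fmk is a caspase inhibitor. Cycloheximide was present in both treated groups and absent from control, so its effect and that of TNF-α cannot be told apart. Of the named agents, TCZ and TC differ only in z-VAD-fmk. The sources used here give no doses or times, so whether these were the same in TC and TCZ is not known.

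NMD destroys mRNAs on which ribosomes stop at a premature or otherwise abnormal stop codon, and it also sets the level of many normal transcripts. The RNA helicase UPF1 is joined by UPF2, which links it to UPF3A or UPF3B and through them to exon junction complexes left by splicing. The kinase SMG1, whose activity is controlled by SMG8 and SMG9, phosphorylates UPF1, and phosphorylated UPF1 draws in the endonuclease SMG6 and the adaptor SMG5, which helps to bring in deadenylation and decapping enzymes. Because the pathway reads stop codons during translation, translation inhibitors such as cycloheximide block it. In human cells the mRNAs of several NMD factors have been described as substrates of NMD themselves.

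Library totals ran from 46509236 to 52909926 counts in 4 libraries and were 26834352 in control 2 and 24922627 in TCZ 2. Control 2 and TCZ 2 also stood apart in the U1 RNA Rnu1a1, with 3 and 1 counts against 165 to 274 in the other 4 libraries. In Rn7s1 they had 1338 and 4 counts against 4916 to 6106, so they also differed from each other. The results below are given without these libraries where that matters. The members had between 406 and 15157 counts in a library, and all 9 were among the 18563 genes that passed the low-count filter. The 9 fibroblast markers were all tested and summed to between 32726 and 37230 CPM (counts scaled to library size) in a library. Of these, 2 rose and 6 fell in TC against control, and 1 rose and 2 fell in TCZ against control. The log2 fold changes ran from -1.75 (Pdgfrb) to 0.41 (Fn1) in TC and from -2.67 (Pdgfra) to 0.28 (Col3a1) in TCZ. Markers of other cells moved with treatment. Those of endothelium summed to 12.4 and 12.8 CPM in control, 148 and 141 under TC, and 57.4 and 56.4 under TCZ, mostly Kdr, with 5 of 5 tested and none at 0 in every library. Of the others, Pecam1, Tek and Cdh5 did not follow Kdr. Pecam1 had a mean of 0.077 CPM in control, 0.14 in TC and 10.8 in TCZ. Tek had 1.46, 0.65 and 3.27, and Cdh5 had 1.25, 0.84 and 2.09. Vwf, at 0.44, 1.64 and 0.78, was highest in TC and intermediate in TCZ, like Kdr. Epithelial markers summed to 19.4 and 16.7 CPM in control, 81.9 and 75.1 under TC, and 17.6 and 13.4 under TCZ, mostly Krt19, with 5 of 5 tested and Epcam and Cdh1 under 1 CPM. Macrophage and leukocyte markers summed to 6.43 to 7.97 CPM in control and TC and to 12.8 and 15.5 in TCZ, with 5 of 7 tested and Ptprc at 1.07 CPM or less. Of these, Itgam rose in TCZ, from a mean of 0.48 CPM in control to 4.74, and Cd68 from 1.27 to 3.27. Cd68 also rose in TC, to 2.29. Ptprc, Adgre1 and Csf1r did not pass in TC or TCZ against control. Whether cells of these types were present, and whether they had a part in the results below, was not tested. In bulk RNA, fewer cells of a type and less RNA per cell cannot be told apart.

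The members lie on 6 chromosomes (mm10, positions as deposited). Upf1 is at chr8:70331522-70353422 (minus), Upf2 at chr2:5951447-6056703 (plus), Upf3a at chr8:13785233-13798538 (plus) and Upf3b at chrX:37091678-37110400 (minus). Smg1 is at chr7:118131308-118243657 (minus), Smg8 at chr11:87077732-87086777 (minus) and Smg9 at chr7:24399598-24422777 (plus). Smg5 is at chr3:88336260-88362337 (plus) and Smg6 at chr11:74925872-75164448 (plus). Smg6 shares 2253 bases with Srr on the opposite strand, and Srr had 211 to 511 counts where Smg6 had 985 to 2079. Since no source used here gives the strand setting, reads in that stretch are uncertain. The other genes overlapping a member had at most 8 counts in a library.

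Promoter sequence is shown for Upf2 and Smg9, the members with the largest rises against control, and for Upf3b, the member with the largest fall against control. Each line gives the 250 bases before the RefSeq start (GRCm38.p6, the same assembly as mm10), 5′ to 3′ on the gene's strand. Capitals mark matches, on either strand, to the motifs named after the sequences.
Upf2 (chr2:5951219-5951468, plus): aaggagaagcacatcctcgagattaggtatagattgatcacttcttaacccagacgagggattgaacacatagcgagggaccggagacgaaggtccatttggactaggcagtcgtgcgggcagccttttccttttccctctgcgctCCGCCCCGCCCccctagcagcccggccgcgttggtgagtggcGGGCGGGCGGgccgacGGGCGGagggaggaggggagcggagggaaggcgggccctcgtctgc
Smg9 (chr7:24399378-24399627, plus): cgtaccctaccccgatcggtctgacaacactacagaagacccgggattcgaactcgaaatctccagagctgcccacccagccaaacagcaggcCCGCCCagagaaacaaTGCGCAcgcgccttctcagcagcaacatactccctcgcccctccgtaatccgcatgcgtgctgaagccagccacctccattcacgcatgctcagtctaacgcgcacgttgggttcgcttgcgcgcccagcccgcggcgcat
Upf3b (chrX:37110323-37110572, minus): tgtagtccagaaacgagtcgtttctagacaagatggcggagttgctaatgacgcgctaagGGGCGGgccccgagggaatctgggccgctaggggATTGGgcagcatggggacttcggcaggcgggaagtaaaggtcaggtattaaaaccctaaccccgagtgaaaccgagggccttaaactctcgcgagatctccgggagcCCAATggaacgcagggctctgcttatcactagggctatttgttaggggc

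The motifs searched in the same window of all 9 members were the GC box GGGCGG, the CCAAT box CCAAT, the NRF1 core TGCGCA, the ETS motif CCGGAAG, the CRE core TGACGT, the E-box CACGTG, the AP-1 motif TGANTCA and the NF-kB consensus by name, with overlapping matches counted. Upf2 had 5 GC boxes, some of which overlap, and none of the other motifs. Smg9 had 1 GC box and 1 NRF1 core, and Upf3b had 1 GC box and 2 CCAAT boxes. Of the 9 members, 7 had a GC box, 4 a CCAAT box, 3 an NRF1 core, 1 (Smg8) an ETS motif and 1 (Upf3a) an NF-kB consensus. Among 13847 promoters of tested protein-coding genes, the same motifs were found in 55.7%, 34.8%, 10.5%, 12.1% and 9.06%. The AP-1, CRE and E-box letters were in 0 of 9 members and in 4.91%, 9.32% and 7.97% of those promoters.

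Upf1, Upf2, Smg1 and Smg9 were higher in TC than in control, and Upf3b was lower. Calls are at an adjusted p under 0.05 in edgeR's quasi-likelihood test, with Benjamini-Hochberg adjustment over all 18563 genes, and so 4 members rose and 1 fell. Over all genes tested, 60.7% were called in this comparison, 31.5% higher and 29.1% lower. The members' median log2 fold change was 0.16 against 0.02 for all genes, and the median of the absolute changes was 0.31 against 0.69. The set of all genes was not matched to the members by level, here or in the comparisons that follow. In TCZ against control 5 members rose and 3 fell, where 60.1% of all genes were called, 31.5% higher and 28.6% lower. The members' median was 0.24 there, against 0.05 for all genes, and the median absolute change was 0.27 against 0.67. In TCZ against TC 1 member rose and 4 fell, where 56.1% were called, 28.2% higher and 27.9% lower. The members' median was -0.09 there, against 0.02 for all genes. The first pair of comparisons share the control libraries, and each treated group enters TCZ against TC as well.

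**Figure D1:**
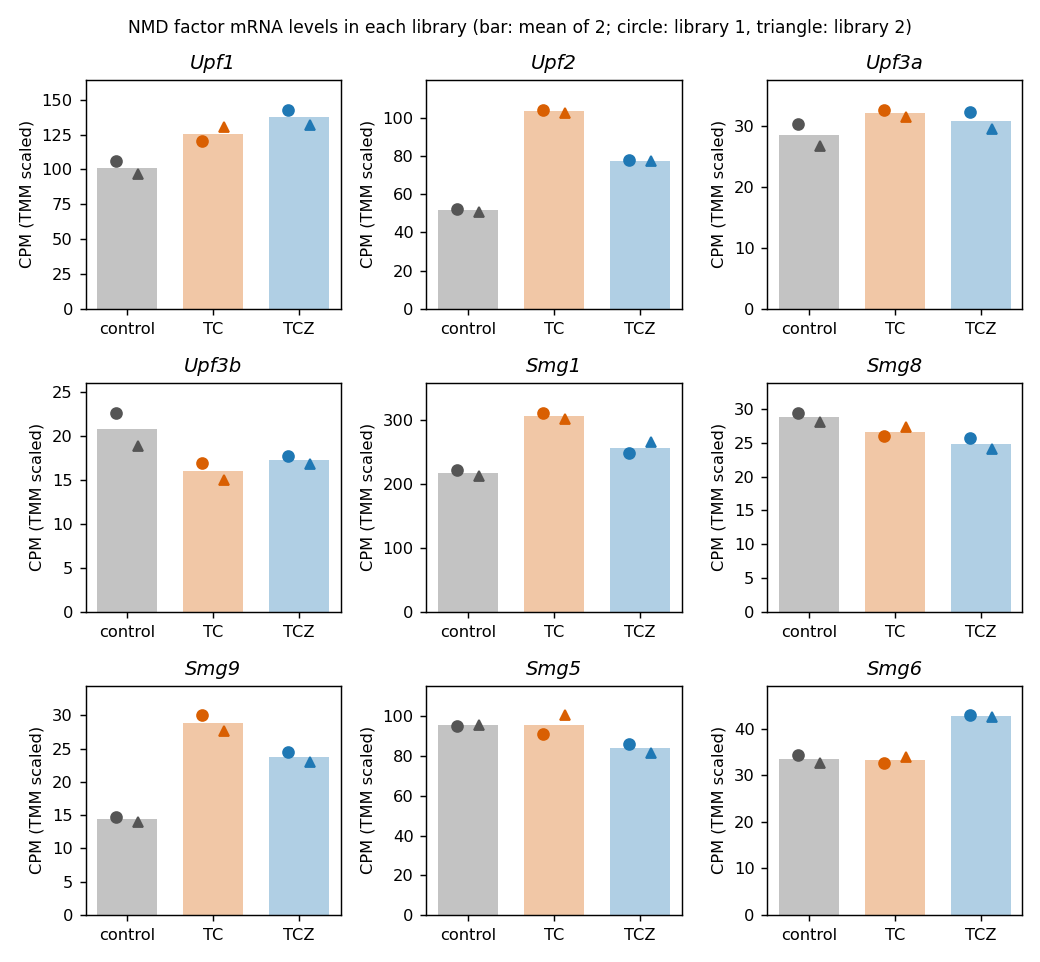
Level of each NMD factor mRNA in the 6 libraries, in CPM scaled by TMM on a linear axis from 0 (bar: mean of 2 libraries; circle and triangle: libraries 1 and 2). Upf2 and Smg9 were highest in TC and intermediate in TCZ, while Smg6 was higher in TCZ than in both other groups.

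Upf1 encodes the helicase at the centre of the pathway. Its level was 106 and 96.5 CPM in control, 120.3 and 130.2 under TC, and 143 and 132 under TCZ, so every treated library lay above both controls and the TCZ libraries lay above the TC ones. It rose in TC (log2 fold change 0.31 ± 0.08 SE, edgeR adjusted p = 0.00156) and in TCZ (0.44 ± 0.08, adjusted p = 3.96e-05). TCZ against TC did not pass (0.13, 95% interval -0.02 to 0.29, adjusted p = 0.141). The TC call was lost without TC 2 (0.25), and the value was 0.23 without control 2. The TC call held in 15 of the 16 alternatives, at an adjusted p of 3.94e-05 to 0.0534, and its value fell to 0.16 with library totals alone. Without control 2 and TCZ 2 the 3 values were 0.23, 0.43 and 0.19, and TCZ against TC then passed (adjusted p = 0.0152, in a range of 0.00877 to 0.654 over the alternatives).

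Upf2 encodes the adaptor between UPF1 and the UPF3 proteins. It had 52.4 and 50.8 CPM in control, 104 and 102 under TC, and 77.7 and 77.4 under TCZ. The 3 groups did not overlap, and the TCZ pair lay between the other pairs. The fold was 2.00 in TC (log2 1.0 ± 0.07, edgeR adjusted p = 4.94e-11) and 1.50 in TCZ (0.59 ± 0.07, adjusted p = 3.21e-07), and TCZ was lower than TC (-0.41 ± 0.07, adjusted p = 3.49e-05). Each of these calls held in 16 of 16 alternatives, and the TCZ value against control fell to 0.39 with library totals alone.

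Upf3a and Upf3b are paralogs that join UPF2 to the exon junction complex. Upf3a had 30.4 and 26.8 CPM in control, 32.7 and 31.6 under TC, and 32.3 and 29.5 under TCZ. The TC libraries lay just above control and the TCZ libraries overlapped it. No comparison passed: the log2 fold change was 0.16 in TC (95% interval -0.01 to 0.34, edgeR adjusted p = 0.105), 0.11 in TCZ (-0.07 to 0.29, adjusted p = 0.283) and -0.05 in TCZ against TC (-0.23 to 0.13, adjusted p = 0.626). The TC value ran from 0.02 to 0.26 over the 16 alternatives (adjusted p from 0.033 to 0.81) and passed in 1, the filter of at least 50 counts in 2 libraries (0.19). Upf3b, on the X chromosome, had 22.7 and 18.9 CPM in control, 17.0 and 15.0 under TC, and 17.7 and 16.8 under TCZ. All treated libraries lay below both controls, and TC and TCZ overlapped. It fell in TC (-0.39 ± 0.10, edgeR adjusted p = 0.00298) and in TCZ (-0.27 ± 0.11, adjusted p = 0.0321), with TCZ against TC not passing (0.11, 95% interval -0.11 to 0.33, adjusted p = 0.378). Without control 1 the values were -0.24 and -0.13 and neither passed. Without control 2 the TCZ value was -0.41. Without TCZ 2 the TCZ value was -0.23 and did not pass. The TC call held in 15 and the TCZ call in 10 of 16 alternatives, at adjusted p of 0.000142 to 0.138 and 0.000519 to 0.412. Without control 2 and TCZ 2 together the values were -0.51 and -0.36.

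Smg1 encodes the kinase that phosphorylates UPF1. It had 222 and 213 CPM in control, 312 and 302 under TC, and 249 and 266 under TCZ, again with 3 separate groups and TCZ between the others. It rose in TC (0.50 ± 0.07, edgeR adjusted p = 2.71e-06), rose less in TCZ (0.24 ± 0.07, adjusted p = 0.0058) and was lower in TCZ than in TC (-0.25 ± 0.07, adjusted p = 0.00421). The TC rise passed in 16 of 16 alternatives. The TCZ rise passed in 12, at adjusted p of 3.72e-05 to 0.508, and was lost with library totals alone (0.04), with no low-count filter (0.22), without control 2 (0.19) and without TCZ 2 (0.20). It was 0.16 without both of these libraries (adjusted p = 0.0332). TCZ against TC passed in 14 alternatives, and was lost without TC 1 (-0.24) and without TCZ 1 (-0.21), with adjusted p from 8.97e-05 to 0.0896.

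Smg8 and Smg9 encode partners that form a complex with SMG1 and restrain it. Smg9 had 14.8 and 13.97 CPM in control, 29.99 and 27.6 under TC, and 24.5 and 22.9 under TCZ. The groups did not overlap, with TC highest and control lowest. The fold was 2.00 in TC (log2 1.0 ± 0.09, edgeR adjusted p = 3.16e-09) and 1.65 in TCZ (0.72 ± 0.09, adjusted p = 7.52e-07), both passing in 16 of 16 alternatives. TCZ was lower than TC (-0.28 ± 0.09, edgeR adjusted p = 0.011), a call lost without TC 1 (-0.23), without TCZ 2 (-0.23) and without control 2 and TCZ 2 (-0.23), with adjusted p from 0.00226 to 0.123 over the alternatives. Smg8 had 29.5 and 28.1 CPM in control, 25.9 and 27.3 under TC, and 25.7 and 24.1 under TCZ. The pairs did not overlap but lay close together. Its value was -0.11 in TC (95% interval -0.29 to 0.06, edgeR adjusted p = 0.244) and it fell in TCZ (-0.21 ± 0.09, adjusted p = 0.0391), with -0.09 in TCZ against TC (-0.27 to 0.08, adjusted p = 0.352). Without control 2 and TCZ 2 together the TCZ value against control was -0.20 and did not pass. The TCZ fall passed in only 6 of 16 alternatives, at adjusted p of 0.000188 to 0.215, and was lost without control 1 (-0.18), TC 1 (-0.22), TC 2 (-0.22) or TCZ 2 (-0.16).

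**Figure D2:**
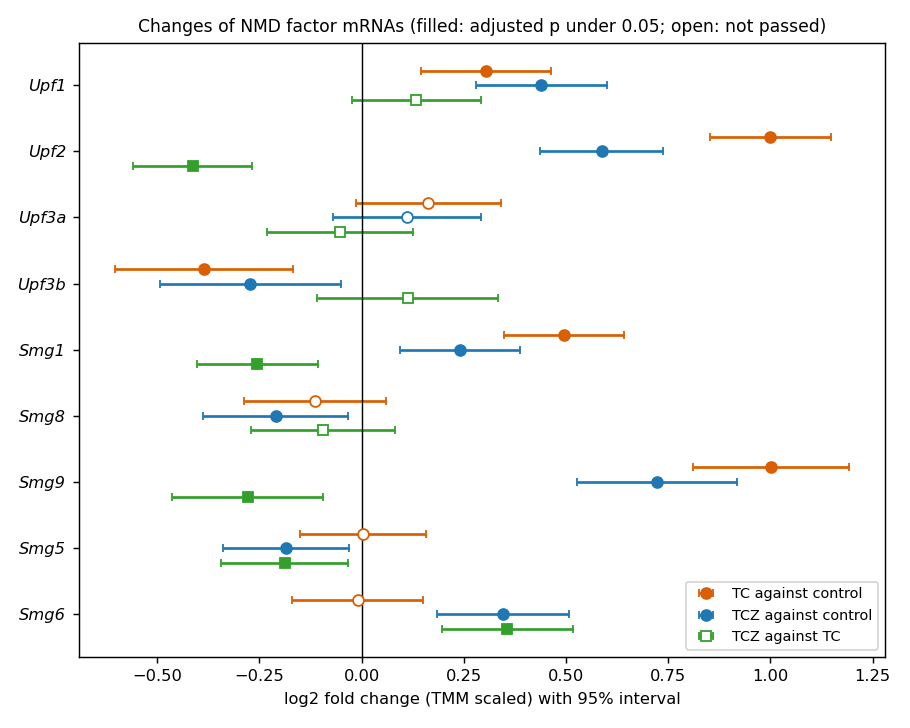
Log2 fold change of each NMD factor mRNA in the 3 comparisons, with 95% intervals (filled: adjusted p under 0.05; open: not passed). Upf2 and Smg9 lie near 1.0 in TC against control, Upf3b lies below 0 against control, and Smg6 lies above 0 in TCZ against both other groups.

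Smg5 and Smg6 encode the effectors that act after UPF1 is phosphorylated, SMG6 by cutting the mRNA and SMG5 as an adaptor. Neither passed the test in TC: Smg5 had a log2 fold change of 0.0038 (95% interval -0.15 to 0.16, edgeR adjusted p = 0.971) and Smg6 of -0.01 (-0.17 to 0.15, adjusted p = 0.923). Smg6 had 34.5 and 32.7 CPM in control, 32.7 and 34.0 under TC, and 42.9 and 42.6 under TCZ. Only the TCZ pair stood apart, above the other 4 libraries. It rose in TCZ against control (0.35 ± 0.08, adjusted p = 0.000575) and against TC (0.36 ± 0.08, adjusted p = 0.000459). The former was lost with library totals alone (0.15), passed in 15 of 16 alternatives (adjusted p of 5.2e-05 to 0.0716), and the latter passed in 16. Srr, whose reads may mix with those of Smg6, had 511 and 347 counts in control, 441 and 504 under TC, and 413 and 211 under TCZ.

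Smg5 had 95.3 and 95.6 CPM in control, 90.9 and 100.5 under TC, and 86.0 and 81.8 under TCZ. The TCZ pair lay below the other 4 libraries, by a small margin. It fell in TCZ against control (-0.18 ± 0.07, edgeR adjusted p = 0.0373) and against TC (-0.19 ± 0.07, adjusted p = 0.0354). Without control 2 and TCZ 2 together both values were -0.15 and neither passed. The first call passed in 6 of 16 alternatives (adjusted p of 3.79e-05 to 0.199) and was lost without control 1 (-0.19), control 2 (-0.20), TC 1 (-0.19), TC 2 (-0.19) or TCZ 2 (-0.14). The second passed in 11 (adjusted p of 0.00279 to 0.377) and was lost without TC 2 (-0.13) or TCZ 2 (-0.15).

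Levels of different genes were set side by side with the authors' RPKM, which divides by gene length. In control Upf1 was highest at 22.9 ± 0.33 RPKM (SD, n = 2), followed by Smg5 (17.6 ± 0.96), Upf3a (16.3 ± 0.61), Smg1 (15.1 ± 0.35), Smg8 (9.68 ± 0.19), Upf2 (8.25 ± 0.26), Smg9 (6.46 ± 0.09), Smg6 (5.83 ± 0.09) and Upf3b (4.51 ± 0.35), and the libraries of no neighbours in this order overlapped. In TC the order was Upf1 (25.7 ± 1.39), Smg1 (19.2 ± 0.49), Upf3a, Smg5, Upf2 (14.9 ± 0.20), Smg9 (11.7 ± 0.70), Smg8 (8.09 ± 0.28), Smg6 and Upf3b (3.14 ± 0.29). Upf3a and Smg5 overlapped at 16.6 ± 0.44 and 15.9 ± 1.10. In TCZ the order was the same, and Smg1 and Upf3a overlapped at 15.6 ± 1.38 and 15.3 ± 0.35. By this measure Upf1 was highest and Upf3b lowest in all 3 groups, and Smg9 moved above Smg8 in both treated groups. The order between genes depends on the gene length used. For Upf3b that was 4974 bases. Its principal coding transcript in GENCODE M21 has 91 bases of 5′ UTR, 1419 of coding sequence and 834 of 3′ UTR. With a shorter length Upf3b would stand higher.

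Ratios between members within a library do not depend on how libraries are scaled. Their size depends on the gene lengths used, while their relative change between libraries does not. The RPKM ratio of Smg8 to Smg9 was 1.49 and 1.50 in control, 0.645 and 0.738 under TC, and 0.783 and 0.784 under TCZ. The kinase was above each of its partners throughout: Smg1 over Smg9 was 2.32 and 2.35 in control, 1.60 and 1.68 under TC, and 1.56 and 1.79 under TCZ. Smg1 over Smg8 went the other way, from 1.55 and 1.56 in control to 2.48 and 2.28 in TC and 2.00 and 2.28 in TCZ. Thus control stood apart from both treated groups in these ratios, and the treated groups overlapped for Smg1 over Smg9 and for Smg1 over Smg8. Upf3a over Upf3b was 3.51 and 3.72 in control, 5.04 and 5.52 under TC, and 4.78 and 4.61 under TCZ, again without overlap between control and treated libraries. Upf1 over Upf2 was lowest in TC, at 1.64 and 1.80, with 2.87 and 2.69 in control and 2.61 and 2.42 in TCZ. Smg5 over Smg6 set TCZ apart, at 2.13 and 2.04 against 2.94 to 3.13 in the other 4 libraries. With 2 libraries a group an exact permutation test of one ratio cannot pass, so these ratios are descriptions.

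**Figure D3:**
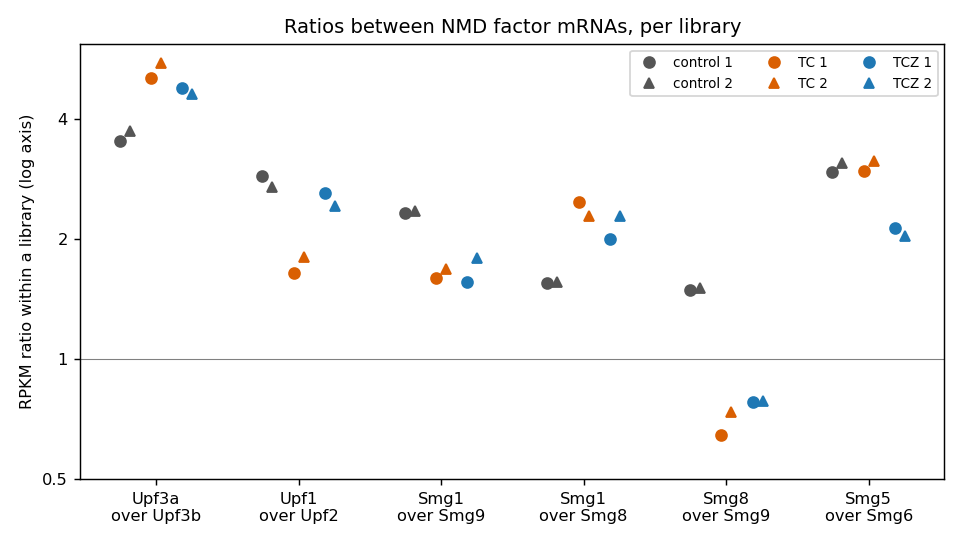
RPKM ratio of pairs of NMD factor mRNAs within each library, on a log axis (colour: group; circle and triangle: libraries 1 and 2; line at 1). Smg8 over Smg9 lies above 1 in control and below 1 in all 4 treated libraries, and Smg5 over Smg6 is lower in TCZ than elsewhere.

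The members' profiles over the 6 libraries fell into a few patterns. Pearson's r of log2 CPM was 0.985 for Smg9 with Upf2, 0.98 for Smg1 with Upf2 and 0.945 for Smg9 with Smg1. The most opposed pairs were Upf3b with Upf2 and Smg5 with Smg6, both at -0.83. These are descriptions over 6 libraries that share 3 treatments. Of 8570 other genes averaging 10 CPM or more, the one whose centred log2 profile lay nearest to each member was picked by the smallest root mean square difference over the 6 libraries. It was Nol11 for Upf2 (0.018), Tma16 for Smg9 (0.032), Map3k2 for Smg1 (0.027) and Col5a2 for Upf1 (0.024). It was Snrnp40 for Upf3a (0.021), Rwdd1 for Upf3b (0.035), Cyfip1 for Smg8 (0.020), Snx12 for Smg5 (0.027) and Hspa13 for Smg6 (0.0090).

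Features that can make an mRNA a substrate of NMD, such as a long 3′ UTR, a start codon in the 5′ UTR or an isoform with an early stop, were read from the GENCODE M21 annotation of GRCm38. One principal coding transcript was taken per gene, over 13882 tested protein-coding genes. Smg1 had the longest 3′ UTR of the members, 4233 bases, longer than in 94.2% of those genes, whose median was 1003 bases. Smg8 had the shortest, 221 bases (longer than in 14.1%), and the other members ranged from 400 bases in Smg9 to 1498 in Smg6. An ATG in the 5′ UTR was present in Upf2, Smg1, Smg9 and Smg5, 1 in each, against 50.5% of all those genes. Of these 4 genes, Upf2, Smg1 and Smg9 rose in TC, where 31.5% of all genes rose, and Smg5 did not pass. Upf1 rose without such an ATG. Whether these features go with a rise was not tested. A transcript annotated with the NMD biotype was listed for Smg1, Smg5 and Smg6, 1 each, against 27.1% of all genes. Of these Smg1 rose in TC, and Smg5 and Smg6 did not pass. The counts are per gene and do not separate isoforms.

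The other parts of the pathway were taken from lists chosen with earlier results of these data known. Of 11 further NMD genes, 5 rose and 3 fell in TC against control (median log2 fold change -0.01), 3 rose and 4 fell in TCZ against control (0.03), and 1 rose and 5 fell in TCZ against TC (0.05). Over all genes tested, 31.5% rose and 29.1% fell in TC, 31.5% and 28.6% in TCZ, and 28.2% and 27.9% in TCZ against TC, and the same shares apply to the lists that follow. With library totals alone the counts of these 11 genes were 4 higher and 5 lower in TC (median -0.16) and 2 higher and 6 lower in TCZ (-0.17). Without control 1, 2 were lower in TCZ, and without TC 1, TC 2 or TCZ 1 none was higher in TCZ than in TC. Etf1, the release factor that reads stop codons, rose by 0.96 ± 0.07 in TC (edgeR adjusted p = 7.69e-11) and 0.77 ± 0.07 in TCZ (adjusted p = 3.3e-09). Its mean was 280 CPM in control, 546 in TC and 478 in TCZ. Dhx34, a helicase that promotes UPF1 phosphorylation in human cells, rose by 1.18 ± 0.10 in TC and was 0.80 lower on the log2 scale in TCZ than in TC (-0.80 ± 0.10, edgeR adjusted p = 5.95e-07). Dhx34 also rose in TCZ against control (0.38 ± 0.11). Gspt2, a release factor partner, rose in TC (0.83 ± 0.17) and was lower in TCZ than in TC (-1.26 ± 0.18). Stau2, a double-stranded RNA binding protein that can recruit UPF1, fell in TC (-0.66 ± 0.11) and in TCZ (-0.56 ± 0.12). Its paralog Stau1 rose by 0.24 ± 0.07 in TC and 0.47 ± 0.07 in TCZ.

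Of 11 exon junction and cap binding genes, 7 rose and 2 fell in TC (median 0.24), 6 rose and 3 fell in TCZ (0.20), and 2 rose and 4 fell in TCZ against TC (-0.01). The share called over all genes was 60.7% in TC, 60.1% in TCZ and 56.1% in TCZ against TC. With library totals alone 4 of the 11 were higher in TC and 4 in TCZ, and the medians were 0.10, 0.01 and -0.07. Without control 2 the number higher in TC was also 4, and without any one of control 1, control 2, TC 1 and TC 2 the number lower in TC was 1. Without TC 1 or TCZ 1, 1 gene was higher in TCZ than in TC. Casc3, a core subunit of the exon junction complex, had 40.6 and 40.1 CPM in control, 73.7 and 77.0 under TC, and 78.7 and 73.6 under TCZ. Its rise was 0.90 ± 0.07 in TC (edgeR adjusted p = 5.34e-10) and 0.92 ± 0.07 in TCZ (adjusted p = 4.81e-10), and the treated groups overlapped. Rbm8a, another core subunit, rose by 0.55 ± 0.09 in TC and 0.66 ± 0.09 in TCZ. Magohb rose by 0.83 ± 0.10 in TC and did not pass in TCZ against control. Pym1, which takes exon junction complexes apart during translation, fell in TCZ (-0.78 ± 0.13, edgeR adjusted p = 1.97e-05). Eif4a3, the helicase of the complex, fell in TC (-0.19 ± 0.08, edgeR adjusted p = 0.0382) and in TCZ (-0.20 ± 0.08, adjusted p = 0.0308).

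Most transcripts described as NMD substrates were higher in the treated groups. Of 14 such transcripts, 12 rose and 2 fell in TC (median 1.78), 11 rose and 3 fell in TCZ (median 1.51), and 6 rose and 5 fell in TCZ against TC (median 0.16). Over all genes 31.5% rose in TC and 31.5% in TCZ against control, and 28.2% in TCZ against TC. Over the alternatives 11 to 12 of the 14 rose in TC and 10 to 11 in TCZ. The list holds snoRNA host RNAs and stress genes, and several of the latter are also known as transcriptional targets of TNF-α or stress signals. NMD activity was not measured, and the cause of these changes was not tested. Snhg1, a snoRNA host, had 19.0 and 20.7 CPM in control, 109.7 and 103 under TC, and 70.7 and 71.7 under TCZ. TCZ lay between the other groups without overlap, and the log2 fold changes were 2.43 ± 0.08 in TC and 1.85 ± 0.08 in TCZ. Gas5, another snoRNA host, changed less, by 0.28 ± 0.07 and 0.30 ± 0.08 (edgeR adjusted p = 0.00305 and 0.00183). Atf3 and Arc had the largest rises of the list, 6.66 ± 0.11 and 5.55 ± 0.11 in TC and 8.73 ± 0.11 and 9.64 ± 0.12 in TCZ. Trib3 and Tbl2 fell against control, Trib3 by 4.71 and Tbl2 by 1.52 on the log2 scale in TC (-4.71 ± 0.12 and -1.52 ± 0.09).

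**Figure D4:**
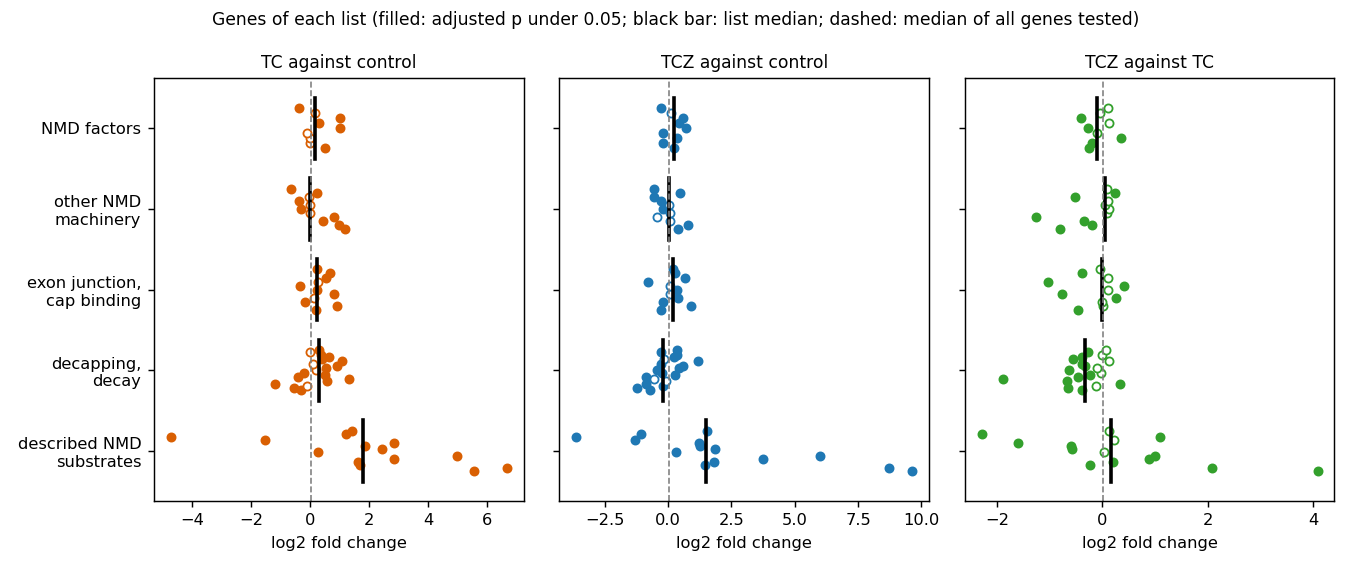
Log2 fold change of every tested gene of the NMD factors, the rest of the NMD machinery, exon junction and cap binding genes, decapping and decay enzymes, and described NMD substrates, in the 3 comparisons, whose horizontal scales differ (filled: adjusted p under 0.05; black bar: list median; dashed line: median of all genes tested). The factors span -0.39 to 1.0 in TC against control, and the substrates span -4.71 to 6.66.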

How the data were processed

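Polyadenylated RNA of 6 libraries, 2 per group, was sequenced on an Illumina instrument, per the labels' protocols. The authors deposited raw read counts per gene and RPKM values in one table, per the file headers; bcl2fastq, HISAT2 2.1.0, HTSeq and mm10 are named in the submitters' processing notes. The deposited RPKM equalled counts divided by gene length and library total, scaled, to within 5e-07. The sources used here give no strand setting, annotation or filters. The count test used edgeR 4.0.16 under R 4.3.3: filterByExpr (minimum count 10), TMM factors, and one quasi-likelihood fit (glmQLFit, glmQLFTest) of group over all 6 libraries, with 3 residual degrees of freedom and Benjamini-Hochberg adjustment. CPM are TMM-scaled. SE was taken as the log2 fold change over the root of F. Alternatives included DESeq2 1.42.0. The 9 members, the lists and the alternatives were chosen with earlier results of these data known. All members are described, and of other lists at most the 2 largest rises and falls per comparison. Exceptions, chosen after their values were seen, were Gas5, Snhg1, some cell markers and, in further comparisons, genes already named. Whether the libraries of a group are separate cultures is not stated, and the p-values rest on a spread among libraries that could be technical only. A further gene that the rule names is not reported here. The procedure was tested on simulated data in which far fewer genes changed than were called here, so that test does not bear on the scaling of these libraries.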

Additional observations from a re-analysis of the deposited data

How the results depend on the processing

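The 16 alternatives gave 432 values for the members over 3 comparisons. Of these 367 kept direction and call, 44 lost a call, 5 gained one and 16 changed sign, all of the last in comparisons that had not passed. Scaling by library totals shifted the log2 median over all genes by -0.14 in TC, -0.20 in TCZ and -0.06 for TCZ over TC. That setting gave 2 members lower in TC and 3 higher in TCZ against control. The number lower in TCZ against control became 0 with no low-count filter, with at least 50 counts in 2 libraries, with DESeq2 and at an adjusted p under 0.01, and 1 without control 2 and TCZ 2. In TCZ against TC, 2 were higher with the 50-count filter, with a batch term for control 2 and TCZ 2 and without both, and 2 were lower without both and at 0.01. Leaving out 1 library at a time gave 0 to 1 members lower in TC, 0 to 3 lower in TCZ against control and 2 to 4 lower in TCZ against TC. The cause was not tested. The batch term set control 2 and TCZ 2 apart by choice and was not taken from a batch in the labels.

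Changes of sign lay near 0. Smg6 in TC was 0.0049 with RLE factors, 0.011 with no filter, 0.012 with the 50-count filter, 0.0050 with DESeq2 and -0.056 to 0.033 with 1 library left out (positive without control 1 or TC 1). Smg5 in TC was -0.14 with library totals, -0.0059 with only the 2 groups compared, -0.012 with the batch term, -0.00011 without control 2 and TCZ 2, and -0.064 to 0.075 with 1 library left out (negative without control 2 or TC 2). Upf3a was -0.087 in TCZ against control with library totals, and in TCZ against TC 0.018 with the batch term, 0.0085 without control 2 and TCZ 2, and -0.13 to 0.0088 with 1 library left out (positive without TCZ 2).

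Deviations of same-numbered libraries correlated at 0.01 for control with TC, 0.12 for control with TCZ and -0.02 for TC with TCZ. The values involving TC gave little sign of pairing by replicate number. The largest value was for control with TCZ, the groups that hold the libraries set apart by the batch term. Whether those libraries share a deviation for that reason or through pairing was not tested. With the replicate block the members called were still 4 higher and 1 lower in TC, 5 and 3 in TCZ, and 1 and 4 in TCZ against TC.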

Other observations

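The enzymes that decay mRNAs downstream of NMD were not described above. Of 19 decapping, deadenylation and decay genes, 10 rose and 5 fell in TC against control (median log2 fold change 0.30, all genes 0.02), 7 rose and 9 fell in TCZ against control (-0.21, all genes 0.05), and 1 rose and 12 fell in TCZ against TC (-0.32, all genes 0.02). Over all genes 60.7%, 60.1% and 56.1% were called in these comparisons. With library totals alone the medians were 0.15, -0.41 and -0.38, and 4 rose and 11 fell in TCZ against control. Without control 1 or without TCZ 1, 6 fell there. Cnot6 and Cnot8, catalytic subunits of the CCR4-NOT deadenylase, fell in both treated groups. Cnot6 had 92.4 and 94.4 CPM in control, 63.4 and 63.6 under TC, and 37.4 and 43.7 under TCZ, with 3 separate groups and TCZ lowest. Its log2 fold changes were -0.56 ± 0.08 in TC and -1.21 ± 0.08 in TCZ (edgeR adjusted p = 1.83e-06 and 1.5e-11).

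Cnot8 had 41.1 and 36.5 CPM in control, 17.1 and 16.8 under TC, and 21.2 and 21.7 under TCZ, so TC was lowest. Pan2, the catalytic subunit of the other cytoplasmic deadenylase, went the opposite way, with 10.8 CPM in both control libraries, 24.0 and 21.5 in TC, and 25.6 and 23.9 in TCZ. It rose by 1.07 ± 0.10 in TC and 1.20 ± 0.10 in TCZ (edgeR adjusted p = 3.16e-09 and 6.79e-10). The decapping enzyme gene Dcp2 fell in TCZ (-0.86 ± 0.09, edgeR adjusted p = 1.18e-08) and less in TC (-0.39 ± 0.08). Exosc10, an exosome nuclease, rose by 0.58 ± 0.07 in TCZ (edgeR adjusted p = 7.42e-07) and by 0.90 ± 0.07 in TC.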
